A study of Mus musculus with 18 samples.

Results

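Cultures of mouse neural precursor cells that received trichostatin A (TSA) for 24 h were compared with untreated cultures of the same time. The comparison holds 8 of the 18 arrays of the series, TSA 1 to 4 and Control 1 to 4, paired by replicate number, and the 17863 of 45101 probe sets whose mean signal was at least 100 in either group. These probe sets stand for 9995 named genes. All cultures, treated or not, were grown from the lateral and medial ganglionic eminences of C57BL/6 J embryos at E15.5. The cells formed neurospheres for 7 days, were dissociated, and were plated with bFGF but no EGF, in medium holding fetal calf serum at 1%, and the medium was changed 2.5 days later, which withdrew bFGF. TSA was given at 50 nM. The methods place its start about a day before bFGF withdrawal, while the labels tie it to the medium change, so the state of the cells at the start of treatment is not settled. The labels do not say whether arrays of one group came from separate cultures, and p-values therefore measure the spread between these arrays only. A pair of further 24 h controls, numbered 5 and 6, has no TSA array with the same number and was left out of the comparison. These arrays stand apart: they correlated with each other at 0.974 and with Controls 1 to 4 at 0.901 to 0.938, while Controls 1 to 4 correlated among themselves at 0.947 to 0.984. With all 6 controls and no replicate block, 38 of the calls given by the naming rule were lost, and those that bear most on a result are given beside it. The TSA arrays of 6 h (2, with 2 controls of that time) served as the nearest other comparison.

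Histone deacetylases (HDACs) remove acetyl groups from lysines of histones and other proteins, and TSA blocks the zinc-dependent members of the family. In neural precursors, deacetylase activity is known to be required for progenitors to leave the cell cycle and mature as oligodendrocytes, the cells that wrap axons in myelin. In that lineage Olig1, Olig2, Nkx2-2 and Sox10 act early, Myrf switches on the myelin genes, and sterol synthesis supplies the membrane.

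At a false discovery rate of 0.05, 7378 probe sets (41.3%) were called, and 4395 genes or 44% of those tested were called, 2270 (22.7%) risen and 2125 (21.3%) fallen. These shares are the background against which each group of genes below is read. The median log2 difference over all genes was -0.0015. Of the called genes, 493 rose and 356 fell by more than 2-fold. When the arrays were instead scaled to one median, the median of all genes shifted by -0.11 and the split became 2708 probe sets risen and 5020 fallen, against 3664 and 3714 after quantile normalization, so small differences have no settled sign. Every called gene given by the naming rule kept its direction under this scaling and the other settings tried. The criteria in the methods of the study, a ratio over 2, a difference over 100 and 90% confidence, were met by 1469 probe sets or 3.26% of the array, 811 higher and 658 lower with TSA. For the confidence an unadjusted p under 0.1 in the paired fit was used, not the value computed in the study. The count is therefore not directly comparable with that of the study. All log2 differences below are TSA minus Control on log2(signal + 32), which understates changes of dim genes. Levels of different genes are not set against each other, since each probe set has its own brightness.

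The labelled tissue was checked against marker genes. All 6 oligodendrocyte lineage markers, all 5 of astrocytes, all 4 of stem cells and all 3 of neurons reached the minimum signal, and 4 of 5 of the ganglionic eminence did so. None of the 4 cortical markers, 6 microglia markers, 4 endothelial markers or 2 erythroid markers did. Summed over the 6 microglia markers, the signal was 35.8 to 70.8 in the controls and 31.8 to 68.6 with TSA. For mural and meningeal cells Acta2 and Tagln were above the minimum, whereas Col1a1, Dcn and Rgs5 were not, and the summed signal ran from 374.7 to 852.6 in the controls and from 410.6 to 939.3 with TSA.

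Genes of the oligodendrocyte lineage are described first. Mobp, which encodes a myelin protein, had signals of 4411, 3062, 4022 and 3936 in Control 1 to 4 and of 179.5, 522, 44.1 and 13.6 in TSA 1 to 4. It was down in every pair, most in pairs 3 and 4, and fell by 4.76 ± 0.54 on the log2 scale (adjusted p = 0.000397). Mag, a glycoprotein of the innermost myelin layer, went from 3545, 2761, 3926 and 3346 in the controls to 569.7, 566, 103 and 17.5 with TSA, again with the lowest signals in TSA 3 and 4, and fell by 3.94 ± 0.57 (adjusted p = 0.00121). Mog, on the outer face of the sheath, stood at 962, 264, 429 and 545 in the controls and at 33.3, 26.9, 3.55 and 3.21 with TSA. Mog fell by 3.50 ± 0.26 (adjusted p = 9.14e-05). Mobp, Mag and Mog are among the largest falls, which the naming rule takes only where the groups do not overlap. For Mbp, the major protein of compact myelin, the controls gave 10080, 9869, 11490 and 10180 and the treated arrays 6337, 7356, 3058 and 1197. All 4 treated arrays were below Controls 1 to 4, TSA 4 the farthest, and Mbp fell by 1.51 ± 0.37 (adjusted p = 0.0132). The 2 unpaired controls were lower than Controls 1 to 4 for these 4 genes, at 159.6 and 72.8 for Mobp, 466.7 and 384.3 for Mag, 24.8 and 12.4 for Mog, and 6351 and 5653 for Mbp in Controls 5 and 6. With all 6 controls the difference of Mobp was -3.17 and did not pass (adjusted p = 0.0642), and those of Mag, Mog and Mbp were -2.98, -2.37 and -1.25 (adjusted p = 0.0244, 0.0466 and 0.0484). In bulk RNA, fewer cells of a type and less RNA per cell cannot be told apart.

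Of 16 tested myelin protein and lipid genes, 14 fell and 1 rose, with a median log2 difference of -2.41 against the background of 21.3% fallen genes. The others named by the rule were Mal, Ermn, Omg and Nfasc, which encode proteins of myelin or of the node, and Gal3st1 and Fa2h, enzymes of the galactolipids of myelin. Their differences lay between -3.19 for Ermn and -2.21 for Nfasc. With all 6 controls Mal, at -1.56, and Ermn, at -2.02, did not pass (adjusted p = 0.285 and 0.0939), with signals of 37.6 and 9.38 for Mal and 46.3 and 9.82 for Ermn in Controls 5 and 6. The member that rose was Gpm6b, a broadly expressed relative of the myelin proteolipid, by 0.15 ± 0.052 (adjusted p = 0.0485), and this call was lost without pair 2, 3 or 4. In 3 of the 16 genes the TSA mean was below the minimum signal of 100, so those entered the test through the controls alone, as did 3 of the progenitor genes and 2 of the transcription factors described next.

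Genes of progenitors and of cells about to myelinate moved the same way, 12 of 14 fallen and 0 risen, with a median of -2.10. Plxnb3, a semaphorin receptor of the lineage, had signals of 662, 1708, 1290 and 917 in the controls and 106, 272, 53 and 55.7 with TSA, and fell by 3.06 ± 0.25 (adjusted p = 0.000113). Enpp6, a choline phosphodiesterase of newly formed oligodendrocytes, fell by 3.02, and the log2 differences of Lims2, an adaptor of integrin adhesions, and of the membrane protein genes Tmem163 and Lhfpl3 were -3.27, -3.34 and -2.20. Pdgfra, the PDGF receptor that defines the progenitor, fell less. Its signals were 3004, 2464, 2427 and 2315 in the controls and 1367, 1185, 982 and 1511 with TSA, a fall of 1.01 ± 0.11 (adjusted p = 0.000361). The 2 members that did not pass were Cspg4, the NG2 proteoglycan of progenitors, at 128 ± 7.54 in the controls and 127 ± 8.54 with TSA (SD, n = 4 each), and Cd9, a tetraspanin, at 1854 ± 129 and 1987 ± 121. Both are named after their values were seen.

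The transcription factors of the lineage divided. Olig1 had signals of 7366, 6777, 7613 and 7783 in the controls and 8013, 6485, 8104 and 7983 with TSA, so the groups overlapped, and it did not pass the test (0.05 ± 0.045, adjusted p = 0.441). Olig2 was at 3561, 3104, 3217 and 3308 without and 3155, 2475, 3020 and 3113 with TSA, also overlapping, at -0.17 ± 0.065 (adjusted p = 0.0703), and it passed with the arrays scaled to one median (adjusted p = 0.0231). Sox10, which acts with them, was at 939, 1881, 2386 and 1686 in the controls and at 473, 589, 148 and 135 with TSA. Every treated array lay below every control, and Sox10 fell by 2.42 ± 0.42 (adjusted p = 0.00282). Nkx2-2, which times the onset of differentiation, gave 676, 948, 1096 and 826 in the controls and 124, 196, 45.2 and 57 with TSA, a fall of 2.85 ± 0.28 (adjusted p = 0.00021). Myrf, the activator of myelin genes, gave 937, 2567, 2537 and 1632 and 264, 759, 126 and 66.4, and fell by 2.88 ± 0.42 (adjusted p = 0.00125). Control 1 was the lowest control for Myrf, Sox10, Nkx2-2 and Plxnb3 and the highest for Mog. In all, 7 of 9 tested factors fell and 0 rose, among them Nkx6-2 (-1.83) and Tcf7l2 (-0.62), with a median of -0.85. Leaving out any 1 pair gave 5 or 6 falls in this group, 12 among progenitor genes and 13 or 14 among myelin genes. Without the replicate block the falls were 4, 12 and 13, and with all 6 controls 3, 10 and 9.

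**Figure D1:**
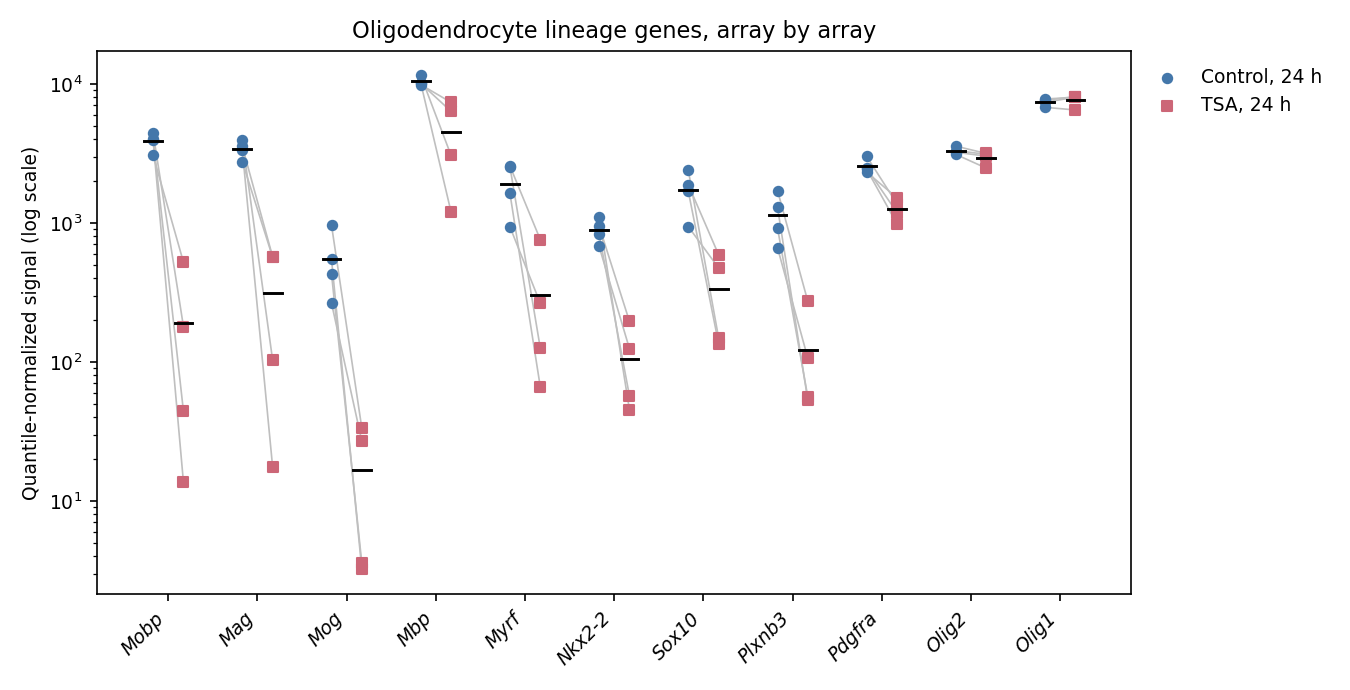
Quantile-normalized signal on a log axis for 11 genes of the oligodendrocyte lineage, with 4 Control arrays (circles) and 4 TSA arrays (squares) at 24 h, grey lines joining arrays of one replicate number and black bars at the group means. Olig1 and Olig2 overlap between the groups, whereas the remaining 9 genes have every TSA array below every control and spread most among the TSA arrays. The naming rule required this separation of Mobp, Mag, Mog, Myrf and Plxnb3. Of all genes tested, 15.7% had every TSA array below every control.

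Among genes of cholesterol and fatty acid synthesis 20 of 25 fell and 0 rose, with a median of -0.65. All 25 were above the minimum signal in both groups. Idi1, which isomerizes the building block of sterols, had signals of 1598, 1462, 877 and 1581 in the controls and 367, 327, 308 and 415 with TSA. The groups were apart and the treated arrays were close together, a fall of 1.84 ± 0.12 (adjusted p = 6.76e-05). The sterol enzymes Lss and Hsd17b7 fell by 1.79 and 1.67, the fatty acid enzymes Elovl6 and Fasn by 1.46 and 0.74, and Insig1, the sensor protein that holds back the pathway when sterols are plentiful, by 1.11. Hmgcs1, which makes the precursor of mevalonate and was chosen after its values were seen, gave 5708, 5819, 4366 and 6042 in the controls and 3217, 3235, 3308 and 3129 with TSA, and fell by 0.75 ± 0.088 (adjusted p = 0.000474). Srebf1, which encodes a master regulator of lipid synthesis and was also chosen after its values were seen, was at 1173 ± 228 in the controls and 1625 ± 600.4 with TSA and did not pass (0.41 ± 0.15, adjusted p = 0.0585). In pair 3 the median of the group was -0.40, against -0.83 to -0.77 in the other pairs, and Control 3 was the lowest control for Idi1 and Hmgcs1.

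The RefSeq promoter windows of all tested members of this list, fallen or not, were searched on both strands (GRCm38.p6, from 250 bases before to 50 bases after the start). The letters sought were CCAAT, the CCAAT box, and TCACNCCAC, a core of the sterol response element. The CCAAT letters were in 16 of the 19 members with a window, or 84.2%, against 43.8% of the 8190 tested genes with one. These 16 include Srebf1, which did not pass. TCACNCCAC was in 1 of the 19, or 5.26%, against 1.33%. That window belongs to Hmgcs1 and lies at chr13:119690101-119690400 on the plus strand. The match, in capitals, starts 137 bases before the gene's start.
Hmgcs1: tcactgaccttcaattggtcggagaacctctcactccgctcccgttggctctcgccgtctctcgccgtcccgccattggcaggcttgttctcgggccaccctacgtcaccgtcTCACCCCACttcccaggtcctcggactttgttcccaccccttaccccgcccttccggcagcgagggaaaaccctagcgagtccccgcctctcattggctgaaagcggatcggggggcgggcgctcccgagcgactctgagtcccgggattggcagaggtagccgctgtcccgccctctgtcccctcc

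Astrocyte genes were divided, with 6 of 22 risen, 7 fallen and a median of 0.03, or 59.1% called against 44% of all genes. Gfap, the intermediate filament of astrocytes, had signals of 1494, 2975, 2325 and 2564 in the controls and 4373, 4139, 4101 and 3262 with TSA. Every treated array was above Controls 1 to 4 and Gfap rose by 0.79 ± 0.17 (adjusted p = 0.0078). Controls 5 and 6 were at 622.6 and 101.5, and with all 6 controls the difference was 1.78 and did not pass (adjusted p = 0.0931). Cd44, a hyaluronan receptor, was at 611, 675, 571 and 785 in the controls and at 1767, 1774, 1982 and 1973 with TSA, a rise of 1.47 ± 0.099 (adjusted p = 6.76e-05). Clu and Vim rose too, by 0.57 and 0.33. S100b, a calcium-binding protein made by astrocytes and also by oligodendrocyte lineage cells, went the other way. Its signals were 882, 1435, 1410 and 1304 in the controls and 272, 381, 81.7 and 134 with TSA, and it fell by 2.52 ± 0.31 (adjusted p = 0.000598). The water channel gene Aqp4 gave 4283, 4966, 4541 and 4738 and 2391, 4234, 3034 and 2350 and fell by 0.66 ± 0.11 (adjusted p = 0.00288), and Aldoc, a glycolytic enzyme, fell by 0.57.

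Among neural stem cell and radial glia genes, 7 of 16 rose and 2 fell, 56.25% called against 44% of all genes, with a median of 0.15. None of the 7 had every treated array above every control. Without the replicate block 2 rose and 1 fell, and with all 6 controls 3 rose and 2 fell. Nes, the intermediate filament of progenitors, had signals of 389, 184, 164 and 445 in the controls and 943, 444, 821 and 1133 with TSA. It was higher in each of the 4 pairs although TSA 2 was level with Control 4, and rose by 1.44 ± 0.17 (adjusted p = 0.000427), while the second of its probe sets was not called. Sox2, which maintains progenitors, gave 6131, 6250, 6398 and 6094 and 5978, 6204, 6547 and 5866 and did not pass (-0.02 ± 0.043, adjusted p = 0.77). Msi2, an RNA-binding protein of progenitors, and Hes1, a Notch effector, rose by 0.63 and 0.72, and the matrix gene Tnc fell by 1.00. Hes5, the other Notch effector of this group, was at 2241, 2349, 2440 and 2918 in the controls and at 1736, 919.9, 564 and 2733 with TSA. TSA 4 was close to its control and TSA 3 far below, and the fall of 0.96 ± 0.28 (adjusted p = 0.0275) was lost without pair 2 and without pair 3.

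Among 21 genes of young neurons 10 fell and 2 rose, with a median of -0.37. The minimum signal was reached only with TSA by 3 of the 21 and only in the controls by 1. Dcx, which stabilizes microtubules in migrating neurons, had signals of 1061, 732, 752 and 842 in the controls and 140.4, 164, 31.4 and 109 with TSA. The groups were apart and Dcx fell by 2.72 ± 0.23 (adjusted p = 0.000116). Tubb3, a tubulin of neurons, stood at 339, 183, 403 and 572 and 148, 94.3, 168 and 214. It fell in every pair, by 1.06 ± 0.12 (adjusted p = 0.000346), although TSA 4 was above Control 2. Ina, Stmn4, Elavl3 and Elavl4, which encode a neurofilament, a tubulin regulator and RNA-binding proteins, fell by 1.52, 1.44, 1.43 and 1.21, and Stmn4 was not called with all 6 controls (-0.89, adjusted p = 0.129). Stmn2, a relative of Stmn4 in growth cones, rose instead. Its signals were 5.48, 6.14, 27 and 39.5 in the controls and 248, 32.6, 116 and 494 with TSA, a rise of 1.97 ± 0.36 (adjusted p = 0.00352), and TSA 2 was below Control 4. Without pair 2 the number of members risen was 4.

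Of 19 genes of vesicles and secretory granules 8 rose and 4 fell, with a median of 0.11, and 4 of the 19 reached the minimum signal only with TSA. Snap25, a protein of vesicle fusion, gave 66.3, 32.9, 54.8 and 86 in the controls and 437, 126, 340.3 and 546 with TSA, with TSA 2 the lowest of its group, and rose by 1.98 ± 0.18 (adjusted p = 0.000151). The granule protein gene Chga rose by 1.11 and Syn1, of synaptic vesicles, by 0.67. Rab3a and Sv2a, also of synaptic vesicles, fell by 1.07 and 1.08, the latter not called with all 6 controls (-0.74, adjusted p = 0.0939). Glutamate transporters and receptors had 7 of 15 fallen and 1 risen, 53.3% called against 44% of all genes. The minimum signal was reached only in the controls by 3 of the 15, which had to be lower with TSA. Slc1a1, a glutamate transporter gene, went from 1478 ± 368 in the controls to 152 ± 78.5 with TSA (SD, n = 4 each) and fell by 3.11 ± 0.23 (adjusted p = 9.14e-05). The receptor subunit genes Grik3, Gria4 and Grin3a fell by 1.67, 1.41 and 1.05, while Grm5 rose by 1.28 ± 0.30 (adjusted p = 0.0113), a call lost without pair 2, and 2 members rose without pair 1 or pair 4.

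The ganglionic eminence genes, of which 9 were tested, had 4 risen and 3 fallen. Dlx1, a homeobox factor of inhibitory neuron precursors, had signals of 505, 322, 756 and 913 in the controls and 117, 148, 132 and 375 with TSA. It fell in each pair, by 1.58 ± 0.20 (adjusted p = 0.000676), with TSA 4 well above the other treated arrays and above Control 2. Dlx2, its neighbour and relative, fell by 0.39 ± 0.12 (adjusted p = 0.0349), a call lost without pair 1, 2 or 3. Gad1, which makes GABA, was at 166 ± 55.6 in the controls and 159 ± 100.5 with TSA and did not pass (adjusted p = 0.749), but it passed as lower without pair 2 (-0.63, adjusted p = 0.0178). Meis2, a homeobox factor of the lateral eminence, was at 1745, 1632, 1919 and 1837 and 2600, 2229, 3246 and 2887 and rose by 0.60 ± 0.075 (adjusted p = 0.000628). Without pair 2, 3 or 4 the number of members risen was 2. Of the cortical list 1 gene, Emx2, was bright enough to test, and it rose by 0.54 ± 0.09 (adjusted p = 0.00233), a call lost with all 6 controls (adjusted p = 0.134).

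The targets of the inhibitor were the next group examined. Of 11 zinc-dependent deacetylase genes 2 rose, 1 fell and 8 did not pass, or 27.3% called against 44% of all genes. Hdac1, a catalytic subunit of nuclear repressor complexes, had signals of 1626, 1932, 1988 and 1873 in the controls and 1936, 1672, 1910 and 2462 with TSA. The groups overlapped and it did not pass (0.09 ± 0.11, adjusted p = 0.511). Hdac2, its close partner, gave 2290, 2328, 2682 and 2462 in the controls and 1987, 1627, 2115 and 1981 with TSA, and fell by 0.34 ± 0.075 (adjusted p = 0.00838). Hdac11 gave 409.8, 356, 329.8 and 358 and 718, 596, 654 and 656, with all treated arrays higher, and rose by 0.80 ± 0.093 (adjusted p = 0.000448). Hdac6, which deacetylates tubulin, rose by 0.59. Of 6 sirtuins, the deacetylases that TSA does not block, Sirt2, Sirt1 and Sirt7 fell by 1.09, 0.66 and 0.39 and 0 rose. That is 50% called beside 44% of all genes. Sirt2 is abundant in myelinating cells and also belongs to the progenitor and premyelinating group. The call for Sirt7 was lost without pair 3 and without pair 4.

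The enzymes and complexes that oppose or recruit deacetylases are given next. Of 14 acetyltransferase and coactivator genes 4 fell and 1 rose, 35.7% called against 44% of all genes, with Kat2b at -0.93 and Kat5 at -0.55 against Hat1, the cytoplasmic histone acetyltransferase, at 0.58, and without pair 3 or pair 4 the falls were 2. Among corepressor and NuRD subunits 4 of 22 fell and 2 rose, 27.3% called beside the same 44%. Chd3 and Mbd3, of the NuRD complex, fell by 1.67 and 0.76, while Hmg20b rose by 0.37 and Sin3b by 0.23. The call for Hmg20b was lost without pair 2, 3 or 4 and that for Sin3b without pair 1, 3 or 4, and 1 of the 4 probe sets of Sin3b fell. Rest, the repressor of neuronal genes, was at 163 ± 23.7 in the controls and 216 ± 49.3 with TSA, and did not pass (0.34 ± 0.12, adjusted p = 0.0504), a value at the threshold that passed in 4 of the other settings tried, with adjusted p from 0.0345 to 0.0499.

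Polycomb and histone methylation genes had 13 of 31 fallen and 6 risen with a median of -0.15. Kmt5b and Suv39h2, which methylate histones at repressed chromatin, fell by 1.41 and 1.03, the polycomb genes Bmi1 and Ezh2 by 0.71 and 0.47, and the demethylase gene Kdm4a by 0.72. Cbx7, another polycomb gene, rose by 1.06. The number risen was 2 without pair 2 and 1 without pair 3 or pair 4. Of 10 genes that write, erase or read DNA methylation 3 fell and 1 rose, 40% called against 44% of all genes. The falls were Mbd3, Dnmt3a (-0.46) and Tet1 (-0.63) and the rise Mbd4 (0.44). Without pair 4 there was 1 fall, and without pair 2, 3 or 4 there was no rise. Histone genes had 4 of 9 risen and 2 fallen, or 1 fallen without pair 1, 3 or 4. Macroh2a2, a variant of repressed chromatin, had signals of 352, 327, 522 and 506 in the controls and 74.1, 117, 83.4 and 75.3 with TSA, and fell by 1.93 ± 0.18 (adjusted p = 0.000168). The rises were small, with H1f2 at 0.36, H2az2 at 0.34 and H2aj at 0.44.

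Of 29 cell cycle and replication genes 11 fell and 5 rose, 55.2% called against 44% of all genes, with a median of -0.22. Without pair 2 the counts were 6 fallen and 7 risen, without the replicate block 5 and 5, and with all 6 controls 7 and 5. Pcna, the sliding clamp of DNA replication, had signals of 2255, 2835, 3053 and 2950 in the controls and 1376, 1796, 1737 and 1663 with TSA. The groups were apart and Pcna fell by 0.74 ± 0.069 (adjusted p = 0.000182). Mcm5, of the replicative helicase, fell by 1.90 and Cdk4 by 0.46, while Gmnn, which blocks relicensing of origins, Cdc25b, a phosphatase of mitotic entry, and Ccnd2, a cyclin of G1, rose by 1.27, 1.08 and 0.77. The pair medians of the group ran from -0.58 in pair 2 to 0.04 in pair 1.

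Of 7 kinase inhibitor genes 3 rose and 1 fell. Cdkn1a, which encodes p21 and is the classical gene induced by deacetylase inhibitors, had signals of 793, 819, 835 and 719.8 in the controls and 1961, 1518, 1987 and 1297 with TSA. All treated arrays were above Controls 1 to 4 and Cdkn1a rose by 1.04 ± 0.11 (adjusted p = 0.000248), while the second of its probe sets was not called. Cdkn2b, which encodes p15, gave 277, 358, 330.0 and 237 and 658, 939, 1051 and 599, a rise of 1.32 ± 0.10 (adjusted p = 0.000103), and Cdkn2a, at the same locus, rose by 1.22 ± 0.29 from a mean under the minimum signal. The rise of Cdkn2a rests on TSA 1, at 266.6 against 44.2 to 65.3 in the other treated arrays, and without pair 1 its means are under the minimum and it is not tested. Controls 5 and 6 were at 358.5 and 406.9 for this gene, against 12.4 to 22.2 in Controls 1 to 4, and with all 6 controls it did not pass (0.19, adjusted p = 0.869). Cdkn1c fell by 0.46 ± 0.12 (adjusted p = 0.0167), and this call was lost without pair 3 and without pair 4. The p21 promoter is known from other cells to respond to deacetylase inhibitors through GC boxes, so its RefSeq window (GRCm38.p6) is shown. It lies at chr17:29093519-29093818 on the plus strand and holds 2 matches to GGGCGG, searched on both strands and set in capitals, which start 104 and 46 bases before the start. It is the one of 2 windows of the gene that holds the letters.
Cdkn1a: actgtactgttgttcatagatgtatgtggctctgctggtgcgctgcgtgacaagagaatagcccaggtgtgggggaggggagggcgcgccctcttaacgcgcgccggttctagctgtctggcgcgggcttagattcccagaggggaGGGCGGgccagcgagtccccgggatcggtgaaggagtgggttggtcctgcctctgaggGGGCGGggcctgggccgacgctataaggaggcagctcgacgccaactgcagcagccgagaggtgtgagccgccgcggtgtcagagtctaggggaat

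The same letters were in 73.5% of the windows of the 1828 risen genes that had one, in 71.5% of those of 1713 fallen genes, and in 72.3% of those of 4649 genes that did not pass. Over all 27025 genes with a window the share was 38.2%.

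Genes of the p53 response and the Bcl2 family rose in 14 of 23 cases and fell in 1, with a median of 0.47, and 4 of the 23 reached the minimum signal only with TSA. Pmaip1, a pro-death member of the Bcl2 family, rose by 1.92 ± 0.13 (adjusted p = 6.56e-05) from 71.8 ± 15.51 in the controls to 368 ± 97.9 (SD, n = 4 each). The death receptor gene Fas rose by 1.71, Ier3 by 2.09, Bcl2l11 by 0.70 and Ccng1 by 0.47. The fall was that of Bcl2l2, a survival gene, at -0.35 ± 0.11 (adjusted p = 0.035), which was lost without pair 2 and without pair 3.

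The 12 largest rises that the naming rule gives were read next. Nid1, a linker protein of basement membranes, had signals of 68.9, 13.8, 29.3 and 48.8 in the controls and 936, 427, 831 and 901 with TSA. Nid1 rose by 3.48 ± 0.12 (adjusted p = 2.15e-05). Slc39a8, a zinc and manganese importer, was at 8.48, 8.21, 19.3 and 15.2 in the controls and 489, 358, 506 and 632 with TSA, a rise of 3.54 ± 0.13 (adjusted p = 2.15e-05). Rnase4, a secreted ribonuclease, was near the bottom of the scale in the controls, at 1.85, 3.76, 5.61 and 5.14, and at 355, 85.7, 317 and 959.5 with TSA. The treated arrays spread more than 10-fold, with TSA 2 lowest and TSA 4 highest, and it rose by 3.30 ± 0.40 (adjusted p = 0.000531). S100a10, the partner of annexin A2, gave 42.2, 169.6, 253 and 163 and 1104, 1018, 1371 and 1648, a rise of 2.93 ± 0.25 (adjusted p = 0.000122), and Tmem255a, a membrane protein of little known function, gave 64.1, 50.3, 47.9 and 70.01 and 753, 489.7, 586 and 651, a rise of 2.85 ± 0.11 (adjusted p = 2.15e-05). Tcim, a regulator of transcription, and Fbln2, a matrix glycoprotein, rose by 2.91 and 2.89.

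The remaining 5 of the 12 largest rises are genes of immune defence. Trim25, a ubiquitin ligase of viral RNA sensing, had signals of 27.4, 6.81, 29.8 and 34.9 in the controls and 521, 187, 445 and 974 with TSA. It rose by 3.14 ± 0.21 (adjusted p = 6.42e-05). Bst2, which tethers budding virus and is induced by interferon, was at 25.7, 24.2, 19.2 and 21.4 in the controls and 397, 114, 335 and 929.7 with TSA, a rise of 2.82 ± 0.36 (adjusted p = 0.000736). Ifitm2, of the interferon-induced membrane proteins, gave 243, 196, 203 and 200.3 and 2493, 765, 1779 and 2542 and rose by 2.85 ± 0.24 (adjusted p = 0.000116). For Rtp4, another interferon-induced gene, the controls were at 34.7, 18.9, 18.4 and 26.2 and the treated arrays at 321, 216, 373 and 772, a rise of 2.87 ± 0.24 (adjusted p = 0.000115). In all 4 genes TSA 2 was the lowest treated array and TSA 4 the highest. H2-Ab1, a chain of MHC class II, was at 1.49, 1, 1 and 7.94 in the controls, near the bottom of the scale, and at 314, 200.4, 451 and 484 with TSA, a rise of 3.44 ± 0.19 (adjusted p = 4.08e-05). All 3 of its tested probe sets rose. The microglia markers named above stayed below the minimum signal in both groups, and which cells made H2-Ab1 was not tested.

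The windows of Bst2 and Ifitm2 are shown because they hold the interferon-response core, the letters GAAA, any 2 bases and GAAA, through which interferon acts. Both are from RefSeq (GRCm38.p6) on the minus strand, Bst2 at chr8:71537423-71537722 and Ifitm2 at chr7:140955912-140956211, and matches on either strand are in capitals. Bst2 has a pair of overlapping matches, which start 130 and 124 bases before the start, and Ifitm2 has 1, which starts 46 bases before it. The letters were in 4.1% of the windows of risen genes, 2.16% of those of fallen genes and 3.27% of those of genes that did not pass.
Bst2: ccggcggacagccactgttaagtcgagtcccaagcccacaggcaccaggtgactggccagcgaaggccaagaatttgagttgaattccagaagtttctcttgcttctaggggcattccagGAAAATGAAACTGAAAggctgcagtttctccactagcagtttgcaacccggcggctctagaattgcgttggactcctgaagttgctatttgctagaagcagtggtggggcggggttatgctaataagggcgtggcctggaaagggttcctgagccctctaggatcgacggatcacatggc
Ifitm2: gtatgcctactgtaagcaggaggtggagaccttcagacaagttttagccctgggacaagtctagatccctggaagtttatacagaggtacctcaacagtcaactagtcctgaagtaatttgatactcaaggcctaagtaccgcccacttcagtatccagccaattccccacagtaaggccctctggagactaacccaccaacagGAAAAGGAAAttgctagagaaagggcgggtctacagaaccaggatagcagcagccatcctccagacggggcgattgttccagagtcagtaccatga

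**Figure D2:**
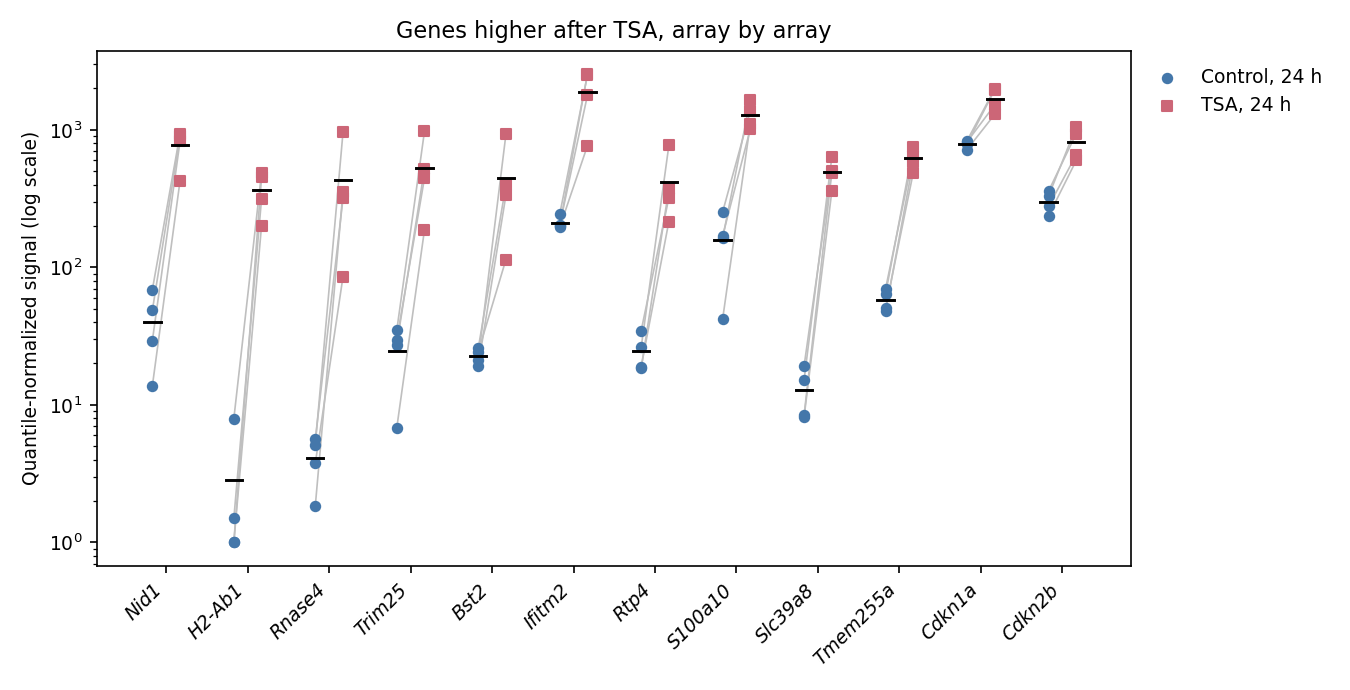
Quantile-normalized signal on a log axis for 12 genes that rose, with 4 Control arrays (circles) and 4 TSA arrays (squares) at 24 h, grey lines joining arrays of one replicate number and black bars at the group means. Every TSA array is above every control for each gene, which the naming rule required of all but Cdkn1a and Cdkn2b. Of all genes tested, 15.9% had every TSA array above every control. TSA 2 is the lowest treated array for Trim25, Bst2, Ifitm2 and Rtp4.

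MHC class I and peptide loading genes had 6 of 10 risen and 1 fallen, with a median of 0.74, and 2 of the 10 reached the minimum signal only with TSA. H2-K1, a heavy chain of class I, had signals of 243, 271, 338 and 291 in the controls and 1296, 1014, 1727 and 1671 with TSA. The groups were apart and H2-K1 rose by 2.18 ± 0.12 (adjusted p = 4.08e-05). H2-D1, the other heavy chain, rose by 2.23, B2m, the light chain, by 1.495, and the peptide transporter and loading genes Tap1 and Tapbp by 1.01 and 0.63. The class I genes are near-identical in part, so H2-K1 and H2-D1 may share signal. Psmb10, a subunit of the immunoproteasome, fell by 1.26 ± 0.15 (adjusted p = 0.000505).

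Genes of redox defence, glutathione and metal binding rose in 18 of 26 cases and fell in 0, with a median of 0.44. Of the 26, 5 reached the minimum signal only with TSA. Gsta4 and Gstt1, glutathione transferases, rose by 1.66 and 1.88, Nqo1, a quinone reductase, by 1.39, thioredoxin Txn1 by 0.65 and Txnip, which binds thioredoxin, by 1.39. Lysosome genes rose in 16 of 27 cases and fell in 0, with a median of 0.30. The cathepsin genes Ctsz, Ctsh, Ctsf and Ctsd rose by 1.93, 1.83, 0.66 and 0.66, Hexa, a subunit of a ganglioside-cleaving enzyme, by 0.65, and the membrane protein gene Lamp2 by 0.52. Chaperone genes moved both ways, 8 of 21 risen and 5 fallen, and 5 risen without pair 4. Hspb1, Bag3, Hspa1b and Hspa1a, which are induced by heat, rose by 1.19, 0.99, 0.92 and 0.86, and Cryab, a small chaperone that myelinating cells and astrocytes also make, fell by 0.98, which did not pass with all 6 controls (-0.53, adjusted p = 0.435). Of 14 immediate early genes 4 rose and 3 fell, 50% called against 44% of all genes, and 2 rose without pair 3. The minimum signal was reached only with TSA by 4 of the 14 and only in the controls by 1, which fixed their direction. Egr1 and Klf4 were at 1.35 and 1.17, against Nr4a1 at -0.93 and Myc at -0.86.

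Extracellular matrix and basement membrane genes rose in 16 of 25 cases and fell in 2, with a median of 0.57. Of the 25, 10 reached the minimum signal only with TSA and so had to be higher there. Fn1, fibronectin, had signals of 74.1, 48, 47.6 and 67.8 in the controls and 326, 187, 226 and 319.9 with TSA, and rose by 1.68 ± 0.12 (adjusted p = 7.79e-05). The fibrillar collagen genes Col5a1 and Col5a2 rose by 1.60 and 1.49. Col9a1, a collagen of cartilage and of oligodendrocyte lineage cells, fell by 2.08, and the fall of Fbn2 (-0.59) was lost without pair 3. Matrix and adhesion genes of neural tissue had 9 of 20 fallen and 5 risen, and 3 risen without pair 3 or pair 4. Vcan, a proteoglycan of the neural matrix, fell by 2.10 ± 0.11 (adjusted p = 3.43e-05), and Cntnap2, an adhesion gene of axons, rose by 1.505. Of 33 genes of axon guidance 14 rose and 14 fell, 84.8% called against 44% of all genes. The minimum signal was reached only with TSA by 5 of the 33 and only in the controls by 2, which fixed their direction. With all 6 controls 8 rose and 11 fell. The ligand gene Sema3c and the receptor gene Epha5 rose by 1.67 and 1.13, and the adhesion gene Dscaml1 and the semaphorin gene Sema6a fell by 2.05 and 1.31.

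Signalling genes were read by role. In the BMP and TGF-beta pathway 9 of 31 rose and 9 fell, 58.1% called against 44% of all genes. The minimum signal was reached only with TSA by 5 of the 31, which had to be higher there, and only in the controls by 1. Among ligands, Bmp6 rose by 2.04 from a mean below the minimum signal. Bmp4 was at 473, 1427, 1481 and 973 in the controls and 98, 283, 65 and 88.5 with TSA, a fall of 2.80 ± 0.29 (adjusted p = 0.000275), and Bmp2 was below the minimum signal in both groups. The receptor gene Acvr2b fell by 1.04. Of the inhibitors, Chrdl1, which binds BMPs outside the cell, rose by 2.56, Bambi, a decoy receptor, by 1.15, and Smad7, which blocks receptors from within, fell by 2.17. Among targets, Id1 was at 582, 1238, 821 and 842 in the controls and 688, 556, 361 and 629.7 with TSA. It was lower in 3 of 4 pairs and did not pass (-0.60 ± 0.21, adjusted p = 0.0545), but it passed as lower in 6 of the other settings, with adjusted p of 0.00534 without pair 1, 0.0179 in 1 fit of 18 arrays, 0.0195 with the arrays scaled to one median, 0.0383 with all 6 controls, 0.0434 with averaged probe sets and 0.0488 on the deposited values. Id2 fell by 0.83, and Ccn2, a target of TGF-beta, rose by 1.87.

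In the LIF receptor, JAK and STAT group 5 of 14 rose and 2 fell, 50% called against 44% of all genes. Stat3, the transcription factor that carries cytokine signals to astrocyte genes, had signals of 976, 871, 1007 and 1026 in the controls and 1439, 1324, 1691 and 1699 with TSA. All treated arrays were higher and Stat3 rose by 0.64 ± 0.082 (adjusted p = 0.000677). The receptor gene Lifr and the kinase gene Jak1 rose by 0.51 and 0.54, the former not called with all 6 controls (adjusted p = 0.158). Of the inhibitors, Socs3 rose by 0.82 while Socs5 and Pias3 fell by 0.80 and 0.76.

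Growth factor receptors and feedback genes of the ERK pathway had 12 of 22 risen and 4 fallen, 72.7% called against 44% of all genes. Without 1 pair 9 to 11 rose and 4 or 5 fell. Without the replicate block the counts were 6 risen and 4 fallen, and with all 6 controls 7 and 3. Egfr had signals of 1511, 799, 971 and 1202 in Controls 1 to 4 and 2443, 2435, 2647 and 1833 with TSA. These groups were apart and Egfr rose by 1.07 ± 0.17 (adjusted p = 0.00179). Controls 5 and 6 were at 1839 and 2071, above TSA 4, and with all 6 controls the difference was 0.79 (adjusted p = 0.0305). Fgfr1 rose by 0.70, and Dusp6 and Etv5, which ERK signals induce, by 1.396 and 0.87. Kit, the receptor of stem cell factor, was at 404, 189, 214 and 254 in the controls and 66.2, 30.3, 28.9 and 24.6 with TSA, and fell by 2.08 ± 0.13 (adjusted p = 5.89e-05). Erbb3, the neuregulin receptor of the oligodendrocyte lineage, fell by 1.85, a call lost with all 6 controls (-0.72, adjusted p = 0.507).

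Notch genes had 10 of 21 risen and 5 fallen, but 6 risen without pair 4 and 3 fallen without pair 2 or pair 3. The ligand gene Dll3 fell by 1.68 and Dll1 rose by 0.41, the modifier Lfng rose by 0.83 and its relative Mfng fell by 1.11. Wnt genes had 13 of 30 risen and 3 fallen, with a median of 0.32 and 11 to 13 risen without 1 pair. The secreted antagonist genes Frzb, Dkk3, Sfrp2 and Sfrp1 rose by 1.89, 1.72, 1.51 and 1.11, the receptor gene Fzd7 by 1.16 and the ligand gene Wnt5a by 1.04. Axin1 and Apc, of the complex that degrades beta-catenin, fell by 0.56 and 0.42, the latter not called without pair 3. Ccn4, a Wnt target, was below the minimum signal in both groups.

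Imprinted genes, expressed from one parental copy, had 9 of 15 risen and 1 fallen, with a median of 0.35. The noncoding Meg3 rose by 2.15 ± 0.18 (adjusted p = 0.000116), Plagl1 by 1.60, Grb10 by 1.56 and Mest by 1.10. The count fallen was 1 (Cdkn1c, above), 2 without pair 1, 3 without pair 2 and 0 without pair 3 or pair 4. Of 20 germline genes with a probe set, normally silent in somatic cells, 4 were bright enough to test, 0 rose and 1, Ddx25, fell by 0.45. Of 5 mural and meningeal genes tested 1, Col1a2, rose by 0.57 ± 0.19 (adjusted p = 0.0415), a call lost without pair 1, 3 or 4.

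**Figure D3:**
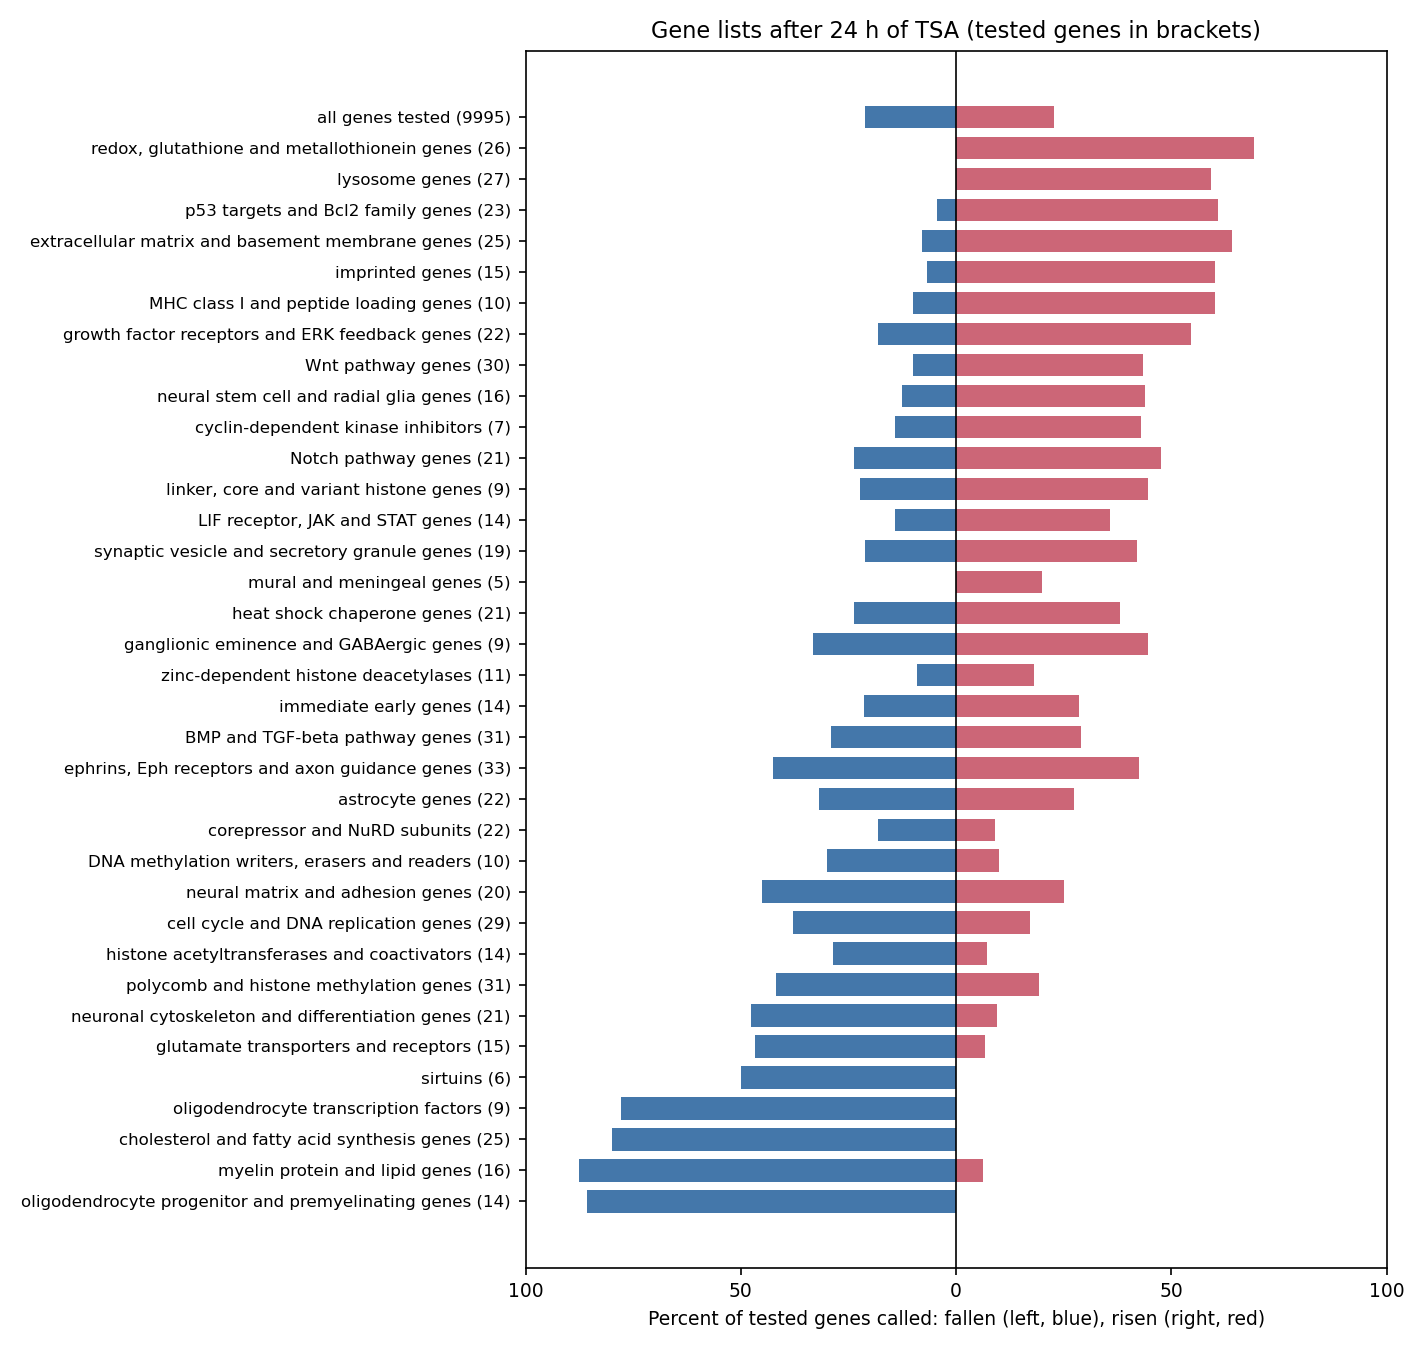
Percent of the tested genes of each list (number in brackets) that rose (right, red) or fell (left, blue) at an adjusted p under 0.05 after 24 h of TSA, with all 9995 genes in the top row at 22.7% risen and 21.3% fallen. Lists with at least 5 tested genes are shown in order of their balance, from redox genes, 18 of 26 risen, to progenitor and premyelinating genes, 12 of 14 fallen.

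The size of the differences varied between the 4 pairs. The median of the myelin genes was -1.88 and -1.52 in pairs 1 and 2, and -3.37 and -3.02 in pairs 3 and 4. For progenitor and premyelinating genes the medians were -1.62, -1.25, -3.01 and -2.32, and for the transcription factors -0.66, -0.73, -1.63 and -1.42. The rises had another order. The MHC class I list gave 0.64, 0.56, 0.77 and 0.95 in pairs 1 to 4, and the matrix list 0.62, 0.42, 0.54 and 0.82. Of these 5 lists, pair 2 had the smallest median shift in 4, and pair 1 had it for the transcription factors.

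**Figure D4:**
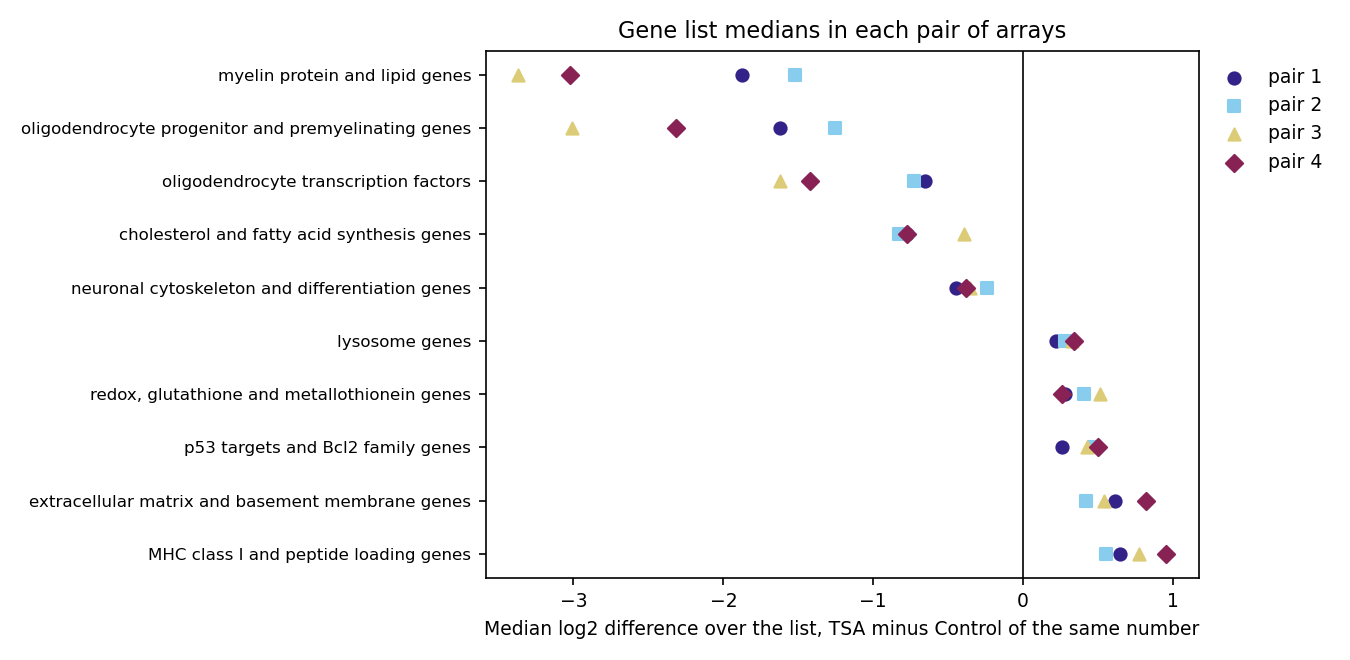
Median log2 difference, TSA minus Control of the same replicate number, over the tested genes of 10 lists, with 1 symbol for each of the 4 pairs. In the 3 oligodendrocyte lists pairs 3 and 4 lie well below pairs 1 and 2, whereas the 5 lists with medians above 0 lie between 0.22 and 0.95 in all pairs.

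The effect at 24 h was then set against that at 6 h, which rests on 2 pairs of other arrays. It differed in 2877 of 10337 genes, or 27.8%, and in 4739 of 18876 probe sets, or 25.1%. The 3 clearest gains by the naming rule were Nid1, Slc39a8 and Tmem255a. Nid1 had a difference of 0.84 at 6 h and gained 2.64 ± 0.20 by 24 h (adjusted p = 0.0014). Slc39a8 went from 0.36 to 3.54 and Tmem255a from 0.54 to 2.85. Among the defence genes, Trim25, Bst2, Ifitm2 and Rtp4 had differences of 0.47, 0.42, 0.48 and -0.09 at 6 h, and the change between the times passed for each (adjusted p = 0.00266, 0.0226, 0.00545 and 0.00277).

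The clearest turns of direction were Mast3, Piga and Wnt7b. Mast3, a kinase, had signals of 220.5, 217, 284 and 236 in the controls and 128, 113, 152 and 120.2 with TSA at 24 h, and of 227 and 354 against 662 and 789.6 at 6 h. It was higher with TSA early and lower late, a change of -2.02 ± 0.15 (adjusted p = 0.0014). Piga, which starts the synthesis of lipid anchors of proteins, did the same, with 289, 208, 275 and 249.8 against 181, 136, 157 and 172 at 24 h, 116 and 135 against 393 and 408 at 6 h and a change of -2.02 ± 0.15 (adjusted p = 0.0014). Wnt7b, a Wnt ligand, was lower at 6 h, 693 and 865 in the controls and 329 and 353 with TSA, and higher at 24 h, 736, 500.2, 472 and 726 against 1277, 1123, 799.5 and 1266, a change of 1.96 ± 0.16 (adjusted p = 0.00157). The difference of Piga at 24 h was not called with all 6 controls (adjusted p = 0.33). Egfr, Gfap and Meis2 had differences of -0.75, -0.59 and -0.52 at 6 h, where Egfr and Meis2 passed (adjusted p = 0.0264 and 0.00353) and Gfap did not (adjusted p = 0.0759). All 3 were above control at 24 h, and the change between the times passed for each (adjusted p = 0.00389, 0.0118 and 0.00212).

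Genes of the lineages were compared between the times one by one, and a change that did not pass does not show that the times were alike. Nkx2-2, Sox10, Myrf, S100b and Dcx had 6 h differences of -3.31, -1.48, -2.02, -1.93 and -1.94, which passed at 6 h for all but Sox10 (adjusted p = 0.0672), and the change to 24 h did not pass for any of them (adjusted p = 0.501, 0.353, 0.389, 0.441 and 0.157). Mobp, Mag and Mog had differences of -1.22, -0.86 and -0.77 at 6 h, none of which passed (adjusted p = 0.213, 0.411 and 0.128), and the change between the times passed for each (adjusted p = 0.0222, 0.0454 and 0.00539). The 6 h controls were unequal, at 113 and 1709 for Mobp, 1383 and 3536 for Mag and 16.8 and 87.3 for Mog. The 6 h TSA arrays were at 29.7 and 723, 608 and 2378, and 3.27 and 24.9. With 32 added to each signal, dim controls limit the fall that could be seen at 6 h, for Mog above all. Of the other myelin genes named above, the change passed for Mal, Ermn and Fa2h (adjusted p = 0.00277, 0.0241 and 0.0431) and did not for Mbp, Gal3st1, Omg and Nfasc (adjusted p = 0.178, 0.264, 0.556 and 0.0649). The same limit holds for Mal and Ermn, with 6 h controls at 15.9 and 200.8 and at 30.1 and 172. Pdgfra had the larger fall at 6 h, -1.99 against -1.01 at 24 h, and the difference passed (adjusted p = 0.0183). Among the sterol genes Idi1 and Lss had differences of -0.28 and -0.31 at 6 h, which did not pass (adjusted p = 0.199 and 0.321), and of -1.84 and -1.79 at 24 h, and the change between the times passed (adjusted p = 0.0026 and 0.00926).

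When the 6 h arrays alone chose the probe sets, 4514 risen and 3900 fallen, 71.1% of the risen were above control at 24 h and 80.3% of the fallen were below it, against 49.1% of all probe sets above. Their median differences at 24 h were 0.19 and -0.30. Of the 4143 risen ones that were tested at 24 h, 1583 rose and 225 fell there, and of 3800 fallen ones 1814 fell and 174 rose, beside 20.5% risen and 20.8% fallen among all probe sets.

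**Figure D5:**
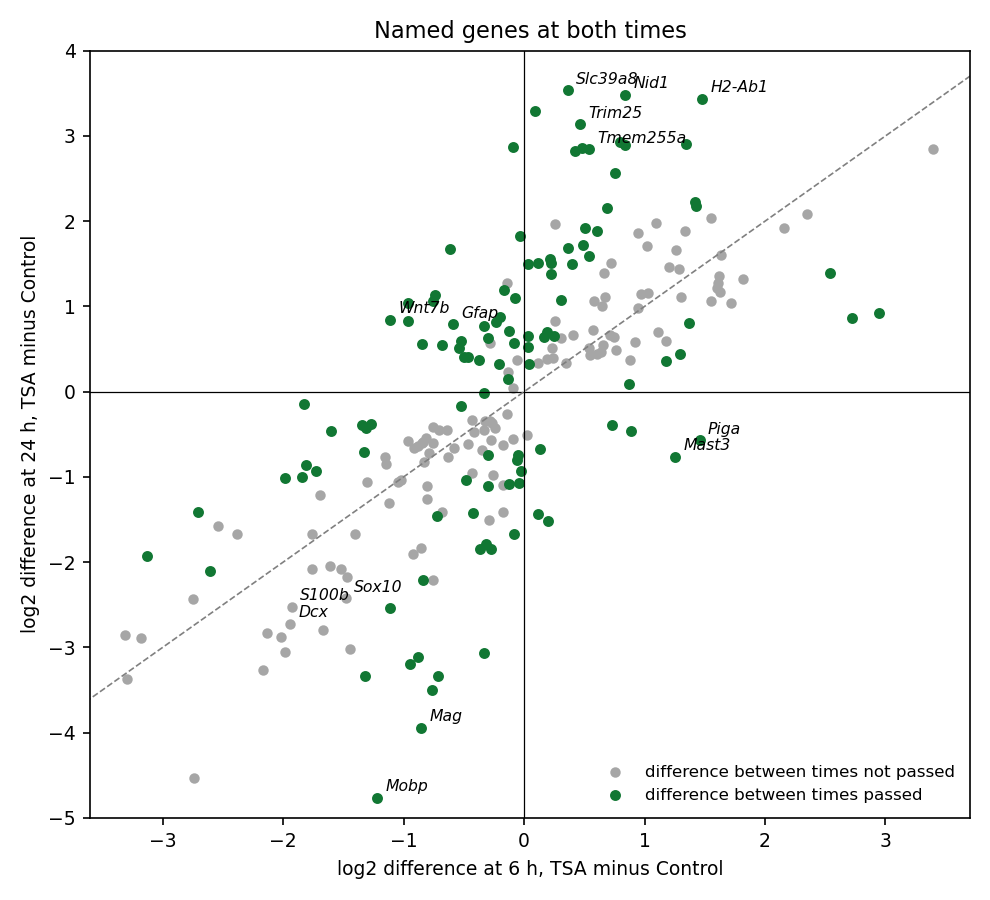
Log2 difference, TSA minus Control, at 6 h (2 pairs, x axis) and at 24 h (4 pairs, y axis) for the 235 named genes, green where the difference between the times passed at an adjusted p under 0.05 and grey where it did not, with a dashed line of equality. Nid1, Slc39a8, Tmem255a and Trim25 stand between 0.36 and 0.84 at 6 h and between 2.85 and 3.54 at 24 h, and Mast3, Piga and Wnt7b changed sign.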

How the data were processed

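RNA was measured on Affymetrix Mouse Genome 430 2.0 arrays. The deposited values are a linear intensity for each probe set. The submitters' processing notes name MAS5, with no version, while the methods name dChip and quantile normalization, so the step that made them is not settled. The 8 arrays had deposited medians of 36.4 to 41.6; no detection calls or scan dates were used, and their number limits the precision. In R 4.3.3 with limma 3.58.1, signals were quantile-normalized over 18 arrays, 32 was added and log2 taken. Those averaging 100 or more in either group were tested by lmFit and eBayes (trend) with the replicate number as a block, with Benjamini-Hochberg adjustment over the whole table and a threshold of 0.05. A member that passed this minimum in 1 group only had to differ, which held for 550 genes with TSA and 376 without; counts over lists include such members. Equal numbers pair the arrays: deviations from the group means correlated at 0.48 to 0.63 for equal numbers, each TSA array best with its own control, and at -0.52 to 0.36 otherwise. No 2 arrays shared more than 0.499% of values.

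A gene is its brightest probe set, named from the array annotation (34958 probe sets with 1 gene, 932 with several, 9211 with none). Of 4113 genes with several tested probe sets, 18 had calls in both directions. The rule names the 12 largest rises and falls with groups apart, up to 6 called members of each list ranked by adjusted p, called members that oppose their list, defining markers, and 6 genes that differ between times. The 40 lists cover 844 entries with a probe set; members and lists were chosen with earlier results of these data known, and no list was tested as a set. Genes already prominent in these data, such as Gpr17 and Efna3, were passed over in the ranking. The difference between the times was tested in 1 fit of 6 pairs with the pair as a block; probe sets called at 6 h came from an unpaired fit of the 4 arrays of that time. Other settings tried were no replicate block, all 6 controls, 1 fit of 18 arrays, 3 other normalizations, 2 pseudocounts, 3 filters, no variance trend, averaged probe sets and leaving out each pair. The fit was tested on simulated data.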

Additional observations from a re-analysis of the deposited data

Results flagged for a closer look

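Among the 53 genes whose signals are given array by array, 106 groups of 4 were examined for 1 array far from the others, and 6 were found, where chance gives about 1 in 20. With TSA, Olig1 had 1 low array (TSA 2, 6485), Dlx1 1 high array (TSA 4, 375.3), Kit 1 high array (TSA 1, 66.15) and Bmp4 1 high array (TSA 2, 283.1). Among the controls, 1 array was high for H2-Ab1 (Control 4, 7.936) and 1 for Ifitm2 (Control 1, 243.1). The difference of Olig1 did not pass with any pair left out, and the other 5 calls held without each pair.

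The effect of TSA differed between 24 h and 6 h, by the test of the difference itself, for 4739 probe sets. The log2 effect at 24 h minus that at 6 h was 2.64 for Nid1, 3.18 for Slc39a8, 2.31 for Tmem255a and 1.96 for Wnt7b, and -2.02 for Mast3 and -2.02 for Piga. The 6 h effect rests on 2 pairs.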

How the results depend on the processing

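No called gene named here changed direction under the alternatives run; Olig1, Sox2, Hdac1 and Gad1, which were not called, changed sign. Of 3962 comparisons of a named gene with its reported value, 3760 kept their side of the threshold, 190 lost it and 12 gained it. Without the replicate block, which sets the pairing aside, 4559 probe sets were called (2249 risen, 2310 fallen), 2810 genes, and 1654 probe sets differed between the times. That fit lost 36 of the named calls, among them Tcf7l2, Hes1, Hes5, Hat1, H1f2, H2aj, Sirt7, Hmg20b, Sin3b, Tet1, Mbd4, Dlx2, Grm5, Gpm6b, Egr1, Bcl2l11, Bcl2l2, Fgfr1, Jak1, Dll1, Apc, Ddx25 and Col1a2. With all 6 controls and no block, 4885 probe sets were called, 2402 of them risen. Of the 38 named calls lost there, those not given above are Apc, Bcl2l11, Bcl2l2, Cdh2, Col1a2, Dll1, Dlx2, Fgfr1, Grm5, H1f10, H1f2, H2az2, Hes1, Hmg20b, Jun, Kat2b, Kmt2c, Macroh2a1, Mbd4, Nsg2, Rab3c, Rcor3, Sin3b, Sirt7, Tcf7l2 and Zfp536, with adjusted p from 0.051 (Bcl2l11) to 0.968 (Kmt2c). Leaving out 1 pair gave 4913 to 7010 probe sets, 2520 to 3575 risen, 2393 to 3435 fallen, the fewest without pair 3. Genes called were then 2977 to 4171 and probe sets meeting the methods' criteria 1381 to 1654. Scaling to 1 median lowered the share of rises among the calls from 49.7% to 35%. Of 1360 list counts recomputed, 161 moved by over 1.5 times, most of them counts under 6. The cause of these changes was not tested. In H2-Ab1, Rnase4 and Slc39a8 the controls lie near the bottom of the signal scale, and with 64 or 16 added in place of 32 their log2 differences were 2.62 and 4.27, 2.54 and 4.05, and 2.85 and 4.14.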

Other observations

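Since 4 of the largest rises are interferon-induced, a list of such genes and one of MHC class II genes were drawn up after these values were seen, and they carry no test. Of 44 interferon-induced genes with a probe set 24 were bright enough to test, 12 of them only with TSA, and these 12 had to be higher there. Of the 24, 21 rose, 0 fell and 3 did not pass, beside 22.7% risen and 21.3% fallen over all genes. The median log2 difference was 0.89. Trim25, Bst2, Ifitm2 and Rtp4, which prompted the list, are counted in these numbers. The pair medians were 0.74, 0.78, 1.05 and 1.20. Usp18, which ends interferon signalling, rose by 2.34 ± 0.25 (adjusted p = 0.000317), Gbp3, a defence GTPase, by 1.90, Ifit2, which binds viral RNA, by 1.71, Ifitm3 by 1.56 and Ifi27 by 1.22. Irf9, of the complex that interferon activates, rose by 0.84. Ifi35, Gbp2 and Eif2ak2 did not pass, at 0.15, 0.28 and 0.38. Of the 20 tested members with a RefSeq window, 9 hold the interferon-response core, or 45%, against 3.22% of tested genes. The members were chosen as interferon-induced, so this share is described only. Of 7 class II genes with a probe set, H2-Ab1 and H2-DMa reached the minimum signal, both only with TSA, and both rose, H2-DMa by 1.67 ± 0.14 (adjusted p = 0.000117).

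The letters GGGCGG are in 7 of the 8 largest rises with a promoter window and in 1 of the 10 largest falls with one, Prkcq, beside 72.4% of tested genes, 73.5% of all risen and 71.5% of all fallen genes with a window. These small sets were chosen by their values and are described only.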
